A study of Schizosaccharomyces pombe with 36 samples.

Results

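Among the genes of the fission yeast Schizosaccharomyces pombe are those that take a cell out of the mitotic cycle and into mating and meiosis. Of the 5129 genes in the count table, 10 were taken for their known roles in this switch, by their systematic names and not by their levels: ste11 (SPBC32C12.02), mei2 (SPAC27D7.03c), mei3 (SPBC119.04), mam2 (SPAC11H11.04), map2 (SPCC1795.06), fus1 (SPAC20G4.02c), mfm1 (SPAPB8E5.05), mfm2 (SPAC513.03), gpa1 (SPBC24C6.06) and sxa2 (SPAC1296.03c). Earlier results of these data were known when they were chosen. The study measured polyadenylated RNA in growing cells that had lost, or carried altered forms of, subunits of co-activator complexes or of a co-chaperone that helps to assemble them. Tra1 and Tra2 are related pseudokinases, of which Tra1 belongs to the SAGA complex and Tra2 to the NuA4 complex. Tti2 is a subunit of the TTT co-chaperone, which helps to assemble kinases of this family, and Spt20 is the SAGA subunit that anchors Tra1. There were 36 libraries, 3 independent cultures in each of 12 conditions, all grown in the rich medium YES and harvested in the exponential phase.

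The conditional strains were tti2-CKO (cre-ER lox-tti2-lox) and tra2-CKO (cre-ER lox-tra2-lox), in which β-estradiol activates a Cre recombinase that removes the gene between loxP sites. Their control was creER, which carries the recombinase and no floxed gene. Each of these strains was treated with β-estradiol or with DMSO, for 18 h in tti2-CKO and for 21 h in tra2-CKO and creER, so the treatment times differ between tti2-CKO and the other strains. The study reports that loss of Tti2 or Tra2 went with progressive defects of proliferation, with no obvious fall in viability in the time examined. The part of proliferation in the levels below was not tested. The constitutive mutants were the deletions tra1Δ and spt20Δ and the altered alleles tra1-Sptra2, tra1-Sctra1 and spt20-HITΔ, and all were set against the same 3 wild-type (WT) libraries. In tra1-Sptra2 a short stretch of Tra1 is exchanged for the homologous one from S. pombe Tra2. The same stretch comes from Saccharomyces cerevisiae Tra1 in tra1-Sctra1. The spt20-HITΔ allele lacks the region of Spt20 named Head Interacting with Tra1 and carries a PK3 tag. The mating type of the strains is not given in the sources used here.

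In S. pombe, starvation for nitrogen and falling protein kinase A activity normally induce ste11, which encodes the HMG-box transcription factor of sexual differentiation. Ste11 activates its own gene, mei2, and the genes of pheromone communication. Cells of the M type secrete M-factor, made from the mfm genes, and carry the P-factor receptor Mam2, whereas P cells secrete P-factor, made from map2, and carry the M-factor receptor. Pheromone signals pass through the Gα subunit Gpa1 and a MAP kinase cascade, the formin Fus1 builds the actin focus at which mating cells fuse, and Sxa2 is a carboxypeptidase that degrades P-factor. In the diploid zygote Mei3 inactivates the Pat1 kinase, which frees the RNA-binding protein Mei2 to start meiosis. In growing cells these genes are kept at low levels.

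Ste11 binds the TR box, and its core is shown because ste11 and mei2 carry it near their starts. The sequence TTCTTTGTT was searched on both strands, its reverse complement being AACAAAGAA, in the RefSeq promoter windows of assembly ASM294v3, which run from 250 bases before to 50 bases after each annotated start. It was present in 102 of 5123 windows (1.99%) and in 3 of the 10 genes. A match is a run of letters and not a measured site. In ste11 it lay 127 bases before the start. In mei2 it began 160 and 138 bases before the start and again 35 bases after it. In mfm1 the reverse complement lay 79 bases before the start. Capitals mark the match, and each sequence reads in the direction of transcription.
ste11: aaagttgaatTTCTTTGTTtgattttcatt
mei2, first match: gccgaccgatTTCTTTGTTcctattttaaa
mei2, next match: attttaaagtTTCTTTGTTttacaaaccct
mei2, after the start: gctgttgagaTTCTTTGTTtacttgg
mfm1: gggtccgaccAACAAAGAAgtctcagtttt

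A shorter core, CTTTGTT with reverse complement AACAAAG, was searched after these matches had been seen. It lies within the longer one, and 530 of 5123 windows (10.3%) held it, as did 6 of the 10 genes. The additional genes were mam2 (130 bases before the start), mfm2 (78 bases) and gpa1 (235 and 78 bases). The windows of mei3, map2, fus1 and sxa2 did not hold these letters.
mam2: tggaaattctaAACAAAGaggaattattgg
mfm2: ataggcaaatgAACAAAGagatcacagttt
gpa1, first match: ttagataaggtCTTTGTTgtagaaacttct
gpa1, next match: aagtaaaaagcCTTTGTTtctgtaattgtt

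Total counts per library ranged from 4811942 to 9724398, with a median of 6667399. The removed genes followed the labels. The level of tti2 was 0.307–0.757 CPM (counts per 1000000) in β-estradiol-treated tti2-CKO cultures and 9.92–13.4 CPM in those treated with DMSO. The range of tra2 was 6.56–8.91 CPM in β-estradiol-treated tra2-CKO cultures against 102–120 CPM with DMSO. That of tra1 was 0.27–0.757 CPM in tra1Δ against 93.3–102 CPM in WT, and that of spt20 was 3.51–5.10 CPM in spt20Δ, 24.2–33.4 CPM in spt20-HITΔ and 36.4–44.7 CPM in WT. Transcripts typical of both mating types were read in every condition. The summed level of 9 M-cell genes spanned 107–275 CPM over all libraries and that of 5 P-cell genes 544–758 CPM, while the defining M-cell genes mat1-Mc and mat3-Mc had 0 counts in every library. Whether reads of these repeated cassettes could be counted is not known, so the zeros say nothing of mating type.

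The 10 genes were transcribed at low levels in growing cells. Their mean levels over the 36 libraries placed them between the 0.562 and the 25.2 percentile of the genes that passed a filter on low counts. Scaled by exonic length, the P-factor receptor gene mam2 had a mean of 8.18 CPM per kb and the M-factor gene mfm2 22 CPM per kb. The corresponding values were 19.3 CPM per kb for gpa1, 17.2 for map2, 16.2 for sxa2, 6.10 for ste11, 5.85 for mei2, 5.33 for fus1, 3.98 for mfm1 and 0.811 for mei3. In bulk RNA, more cells that express a gene and more RNA per cell cannot be told apart.

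The range between conditions differed widely from gene to gene. The highest condition mean exceeded the lowest 24.7-fold for mfm1, 10.9-fold for mei2, 6.99-fold for mfm2, 5.87-fold for mei3, 5.64-fold for mam2 and 4.11-fold for ste11. It did so 2.86-fold for fus1, 2.23-fold for map2, 2.06-fold for gpa1 and 1.85-fold for sxa2. For ste11, mei2 and mfm2, the highest means were those of tra1Δ and β-estradiol-treated tti2-CKO cultures. The order of ste11 began with tra1Δ (53.2 CPM) and β-estradiol-treated tti2-CKO (52.2 CPM), whose libraries overlapped each other and lay above those of spt20Δ (30.2 CPM). From spt20Δ down to the lowest mean, 13.0 CPM in DMSO-treated tra2-CKO, every neighbour in the order overlapped the next. The order of mei2 began in the same way, with tra1Δ (63.9 CPM), β-estradiol-treated tti2-CKO (61.9 CPM), spt20Δ (29.8 CPM) and WT (28.1 CPM), each overlapping the next, and also ended with DMSO-treated tra2-CKO (5.85 CPM). For mfm1 only β-estradiol-treated tti2-CKO stood apart, and for fus1 only β-estradiol-treated tra2-CKO.

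**Figure D1:**
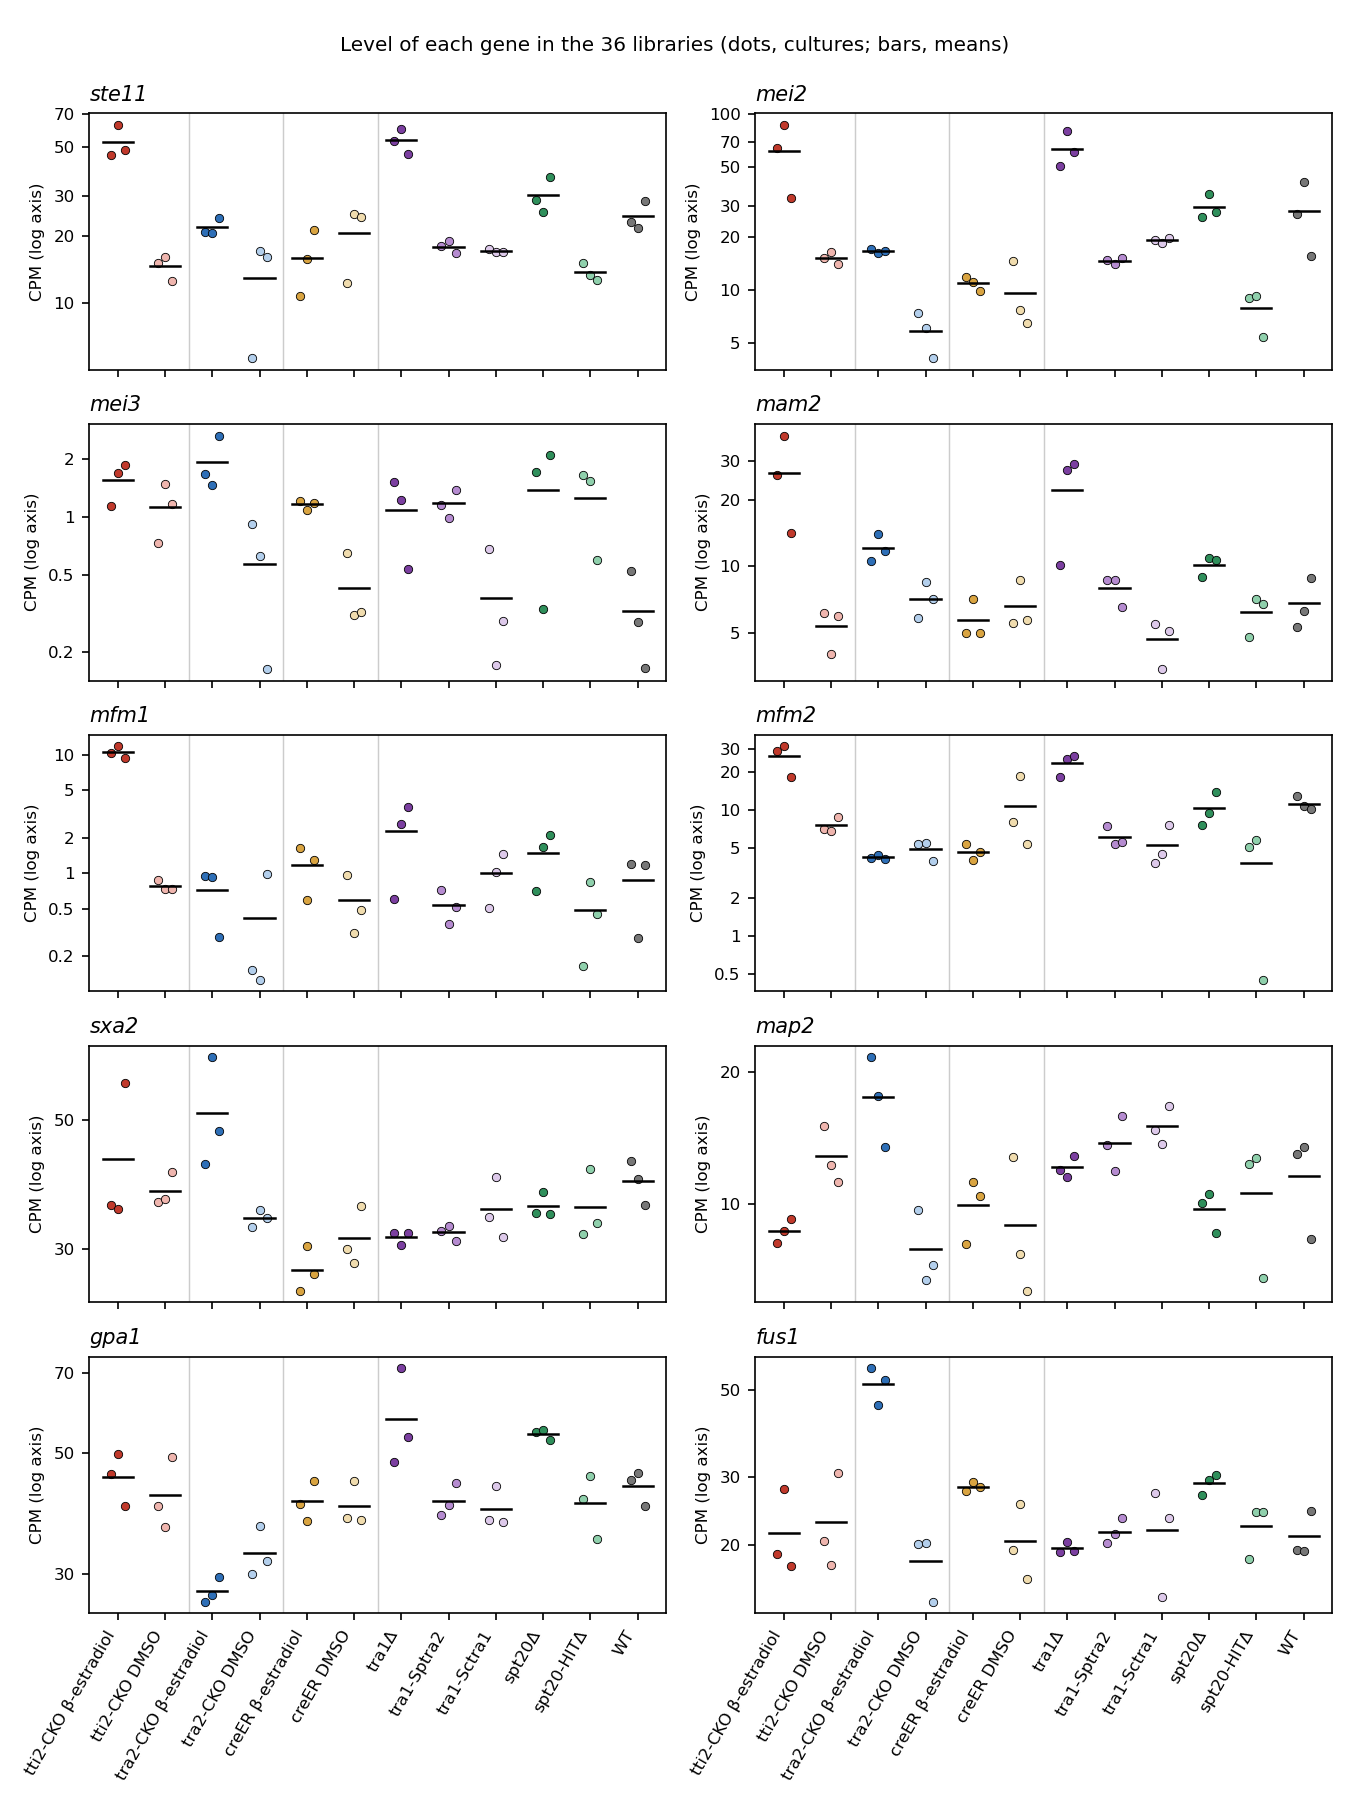
CPM of each of the 10 genes (log axis) in every library, with 1 dot per culture and a bar at the mean of each of the 12 conditions, which run along the horizontal axis. The libraries of tra1Δ and of β-estradiol-treated tti2-CKO sit above the other conditions for ste11, and those of β-estradiol-treated tra2-CKO sit above the others for fus1.

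Loss of Tti2 was followed by higher RNA of the 2 regulators at the head of the programme. The level of ste11 was 46.0, 62.6 and 48.1 CPM in β-estradiol-treated tti2-CKO cultures, against 15, 16.1 and 12.5 CPM in DMSO-treated ones. All treated libraries lay above all DMSO libraries, and the means of 52.2 ± 9.06 and 14.6 ± 1.84 CPM (SD, n = 3 each) differed 3.58-fold. The log2 fold change was 1.83 ± 0.17 (SE, edgeR quasi-likelihood test with Benjamini-Hochberg adjustment over all genes, adjusted p = 4.37e-05). For mei2, the RNA-binding protein gene of meiotic entry, the values were 64.6, 87.5 and 33.6 CPM in β-estradiol-treated cultures and 15.2, 16.4 and 14.0 CPM in DMSO-treated ones. The treated cultures differed among themselves by more than those of ste11, but none overlapped DMSO, and the log2 fold change was 2.02 ± 0.30 (edgeR, adjusted p = 0.000713). Its partner mei3 was read with at most 18 counts in any library and was not tested in tti2-CKO.

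Of 7 tested M-cell genes, 3 rose in tti2-CKO, namely mfm1, mfm2 and mam2, where 12.8% of all 4920 genes tested were called. The others, sxa2, mam1, mam3 and mfm3, were not called. Mean levels of the M-factor exporter gene mam1, the adhesin gene mam3 and the M-factor gene mfm3 were 87.7, 43.2 and 1.40 CPM in β-estradiol-treated cultures and 68.1, 36.2 and 1.27 CPM in DMSO-treated ones. The level of mfm1, one of the M-factor genes, was 10.2, 11.7 and 9.37 CPM in β-estradiol-treated tti2-CKO cultures (54, 104 and 61 counts), against 0.877, 0.740 and 0.729 CPM in DMSO-treated ones (6, 5 and 5 counts). No other condition reached the treated tti2-CKO libraries for mfm1, the next highest being tra1Δ with 0.606, 2.62 and 3.65 CPM. The fold of the means was 13.3 and the log2 fold change 3.70 ± 0.29 (edgeR, adjusted p = 1.97e-05). This gene passed the filter on low counts only through the treated libraries, so a difference was built into its being tested. The level of mfm2, another M-factor gene, was 29.4, 31.6 and 18.1 CPM in β-estradiol-treated cultures and 7.01, 6.81 and 8.75 CPM in DMSO-treated ones. All treated values again exceeded all DMSO values, with a log2 fold change of 1.80 ± 0.24 (edgeR, adjusted p = 0.000352). For mam2, which encodes the P-factor receptor of M cells, they were 25.8, 39.0 and 14.1 CPM in β-estradiol-treated cultures and 6.14, 3.996 and 5.98 CPM in DMSO-treated ones. The lowest treated culture was above the highest DMSO culture, and the log2 fold change was 2.29 ± 0.36 (edgeR, adjusted p = 0.000917).

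The remaining genes were not called in tti2-CKO. The P-factor gene map2 had 8.14, 8.66 and 9.22 CPM in β-estradiol-treated tti2-CKO cultures and 15, 12.3 and 11.2 CPM in DMSO-treated ones. Its treated libraries lay below all DMSO libraries, but the log2 fold change of −0.58 ± 0.19 did not pass the test (edgeR, adjusted p = 0.0345). Groups overlapped for fus1, with 18.9, 27.9 and 17.7 CPM in β-estradiol-treated cultures and 20.5, 17.8 and 30.6 CPM in DMSO-treated ones. The log2 fold changes were −0.09 ± 0.23 for fus1, 0.10 ± 0.14 for gpa1 and 0.16 ± 0.18 for sxa2, the carboxypeptidase gene of M cells (edgeR, adjusted p = 0.795, 0.614 and 0.505). The summed M-cell genes, which include mam2, mfm1, mfm2 and sxa2, were at 208–275 CPM in β-estradiol-treated cultures and 139–185 CPM in DMSO-treated ones, and the summed P-cell genes, which include map2, at 665–738 CPM in β-estradiol-treated and 657–717 CPM in DMSO-treated cultures. The protease gene sxa1 carries most of the P-cell sum, and the other 4 genes were at 88.6–99.5 CPM in β-estradiol-treated and 82.0–90.4 CPM in DMSO-treated cultures. Whether the share of cells of either mating type changed was not tested.

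Thus 5 of the 9 genes tested were called in tti2-CKO, all higher with β-estradiol, where 12.8% of the 4920 genes tested were called. Genes were called where the adjusted p did not exceed 0.01 and the level changed 1.5-fold or more. Without mfm1, which was tested only through its treated libraries, 4 of 8 were called and the median log2 fold change was 0.98, that of all genes tested being −0.01. All 5 calls were kept when any 1 library was left out. With 3 cultures against 3, the smallest two-sided p of an exact permutation test is 0.1 for any gene, so the tests rest on the spread shared across genes.

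Around these genes, members of fixed lists were called in both directions in tti2-CKO, where 12.8% of all genes were called. Of 18 genes of pheromone signalling and the MAP kinase cascade, 3 rose and 1 fell. The MAP kinase gene spk1 (log2 fold change 1.11), the adaptor gene ste4 (0.73) and the M-factor receptor gene map3 (0.62) rose, and the MAP kinase kinase gene byr1 (−0.63) fell. Of 29 tested regulators of ste11, 2 fell, namely gpa2, the Gα subunit gene of glucose sensing (−1.46), and cbf12, a transcription factor gene of the CSL family (−1.41). Among 15 genes of mating adhesion and fusion, 2 rose, the ascus wall glucanase gene agn2 (0.82) and the membrane fusion gene prm1 (0.67). Of 28 meiotic genes, 2 rose, the recombinase gene dmc1 (2.32) and the bZIP factor gene atf31 (1.19). Mean levels of dmc1 were 4.57 CPM with β-estradiol and 0.881 CPM with DMSO. Like mfm1, dmc1 passed the filter on low counts only through the treated libraries.

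Loss of Tra2 was followed by higher RNA of fus1, mei2 and map2. The formin gene fus1 was at 57.0, 45.9 and 53.3 CPM in β-estradiol-treated tra2-CKO cultures, against 20.1, 20.2 and 14.3 CPM in DMSO-treated ones. These 3 treated libraries lay above every other library of the series for fus1. The means were 52.1 ± 5.64 and 18.2 ± 3.39 CPM (SD, n = 3 each) and the log2 fold change was 1.53 ± 0.15 (edgeR, adjusted p = 0.000196). For mei2 the values were 17.2, 16.2 and 16.8 CPM in β-estradiol-treated cultures and 7.38, 6.07 and 4.11 CPM in DMSO-treated ones. The groups did not overlap and the log2 fold change was also 1.53 ± 0.20 (edgeR, adjusted p = 0.000892), although the treated mean of 16.7 CPM was below the WT mean of 28.1 CPM.

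The P-factor gene map2 was the other gene called, with 21.6, 17.6 and 13.4 CPM in β-estradiol-treated tra2-CKO cultures and 9.68, 6.70 and 7.24 CPM in DMSO-treated ones. The groups did not overlap, and the log2 fold change was 1.19 ± 0.23 (edgeR, adjusted p = 0.00418). The call of map2 was lost without DMSO replicate 2 (adjusted p = 0.0163, edgeR), DMSO replicate 3 (0.0187), β-estradiol replicate 1 (0.0205) or β-estradiol replicate 2 (0.0180). Within map2, 7.07% of the 50-base windows occur more than once, all of them inside the gene itself.

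For ste11 the values were 20.7, 20.6 and 24.1 CPM in β-estradiol-treated tra2-CKO cultures and 5.69, 17.1 and 16.1 CPM in DMSO-treated ones. DMSO replicate 1 was far below the other DMSO libraries, all of which lay below the treated ones, and the log2 fold change of 0.76 ± 0.32 did not pass (edgeR, adjusted p = 0.0908). For mam2 they were 10.6, 13.9 and 11.7 CPM in β-estradiol-treated cultures and 5.84, 8.47 and 7.07 CPM in DMSO-treated ones. All treated libraries were higher, but the log2 fold change of 0.77 ± 0.20 did not pass (edgeR, adjusted p = 0.0159). The P-factor protease gene sxa2 had 42.1, 63.9 and 47.8 CPM in β-estradiol-treated cultures and 32.7, 35.0 and 33.9 CPM in DMSO-treated ones. It did not overlap between groups or pass the test (0.62 ± 0.15, edgeR, adjusted p = 0.0134). The Pat1 inhibitor gene mei3 passed the filter in this comparison, again only through its treated libraries, with 14, 11 and 18 counts in β-estradiol-treated cultures and 6, 5 and 1 in DMSO-treated ones (log2 fold change 1.69 ± 0.51, edgeR, adjusted p = 0.0298). The M-factor gene mfm2 was at 4.17, 4.38 and 4.09 CPM in β-estradiol-treated cultures and 5.38, 5.44 and 3.95 CPM in DMSO-treated ones. These groups overlapped, with a log2 fold change of −0.21 ± 0.22, and mfm1 was too low to be tested. For gpa1 the log2 fold change was −0.21 ± 0.11, with treated cultures at 26.7–29.7 CPM and DMSO cultures at 29.97–36.7 CPM.

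Of the 9 genes tested, 3 were called higher in β-estradiol-treated tra2-CKO, against a background of 10.1% of 4929 genes. Without mei3, which was tested only through its treated libraries, these were 3 of 8 with a median log2 fold change of 0.77, that of all genes being 0.01. Cultures with the same replicate number deviated together in tra2-CKO, and a fit with this number as block called 4 genes, sxa2 being added (log2 fold change 0.61, edgeR, adjusted p = 0.00667). Without β-estradiol replicate 1, sxa2 was called as well (0.75, edgeR, adjusted p = 0.00979).

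Among meiotic genes, 9 of 28 rose in tra2-CKO, where 10.1% of all genes were called. The counts of listed genes given here do not take out the response of creER, which follows below. The largest rises were those of the bZIP factor genes atf21 (log2 fold change 3.90) and atf31 (2.52), the spore wall glucan synthase gene bgs2 (1.84) and the chromosome pairing gene meu13 (1.83). Mean levels of atf21 and meu13 were 6.05 and 3.41 CPM with β-estradiol and 0.390 and 0.939 CPM with DMSO. Both passed the filter on low counts only through the treated libraries, so a difference was built into their being tested. Of 18 signalling genes, 5 rose and 1 fell, among them spk1 (1.98), the MAP kinase kinase kinase gene byr2 (0.74) and the G-protein regulator gene rgs1 (0.70) upwards and byr1 (−1.24) downwards. Of 29 regulators of ste11, 2 rose, the gene of the protein kinase A regulatory subunit cgs1 (1.12) and the glucose receptor gene git3 (0.67). Of 15 fusion genes, 3 rose, namely agn2 (1.62), the nuclear fusion gene tht1 (0.93) and prm1 (0.73). Of 5 P-cell genes, 3 rose, namely map2, map3 (0.68) and map1 (1.29), the MADS-box factor gene of P cells. The summed P-cell genes were at 619–636 CPM in β-estradiol-treated cultures and 555–631 CPM in DMSO-treated ones, and without sxa1 at 92.5–102 CPM in β-estradiol-treated and 57.5–70.9 CPM in DMSO-treated ones, and the summed M-cell genes at 148–174 CPM in β-estradiol-treated and 122–147 CPM in DMSO-treated cultures. The part of cell type was not tested.

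The creER strain shows what β-estradiol and the recombinase do on their own. Neither mei3 nor mfm1 passed the filter on low counts, and none of the 8 genes tested was called there by edgeR or by DESeq2, and 2 had an unadjusted p under 0.05, where 1.14% of 4904 genes were called. One of these was fus1, with 27.5, 29.1 and 28.2 CPM in β-estradiol-treated creER cultures and 19.5, 25.6 and 16.4 CPM in DMSO-treated ones. All treated libraries were above all DMSO libraries, with a log2 fold change of 0.46 ± 0.17 (edgeR, adjusted p = 0.288). The other was mfm2, with 5.39, 3.97 and 4.63 CPM in β-estradiol-treated cultures and 7.95, 18.5 and 5.36 CPM in DMSO-treated ones. DMSO replicate 2 stood apart from the others, and the log2 fold change was −1.20 ± 0.44 (edgeR, adjusted p = 0.277). The log2 fold changes of ste11 and mei2 were −0.37 and 0.19 (edgeR, adjusted p = 0.705 and 0.856). Backgrounds here and below are shares of genes called. The share of all genes at an unadjusted p under 0.05 was not computed, so counts at that level have no background beside them.

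Several listed genes rose with β-estradiol in creER too. They were spk1 (log2 fold change 1.25), agn2 (1.78), atf31 (1.93), bgs2 (1.17) and mbx2 (1.11), which encodes a MADS-box factor of flocculation. These made up 1 of 17 signalling genes, 1 of 15 fusion genes and 3 of 26 meiotic genes, where 1.14% of all genes were called. No regulator of ste11 was called there by edgeR, with 2 of 29 at an unadjusted p under 0.05. The responses of spk1, agn2, atf31 and bgs2 given for the conditional knockouts therefore stand beside responses of the same sign in their control strain.

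**Figure D2:**
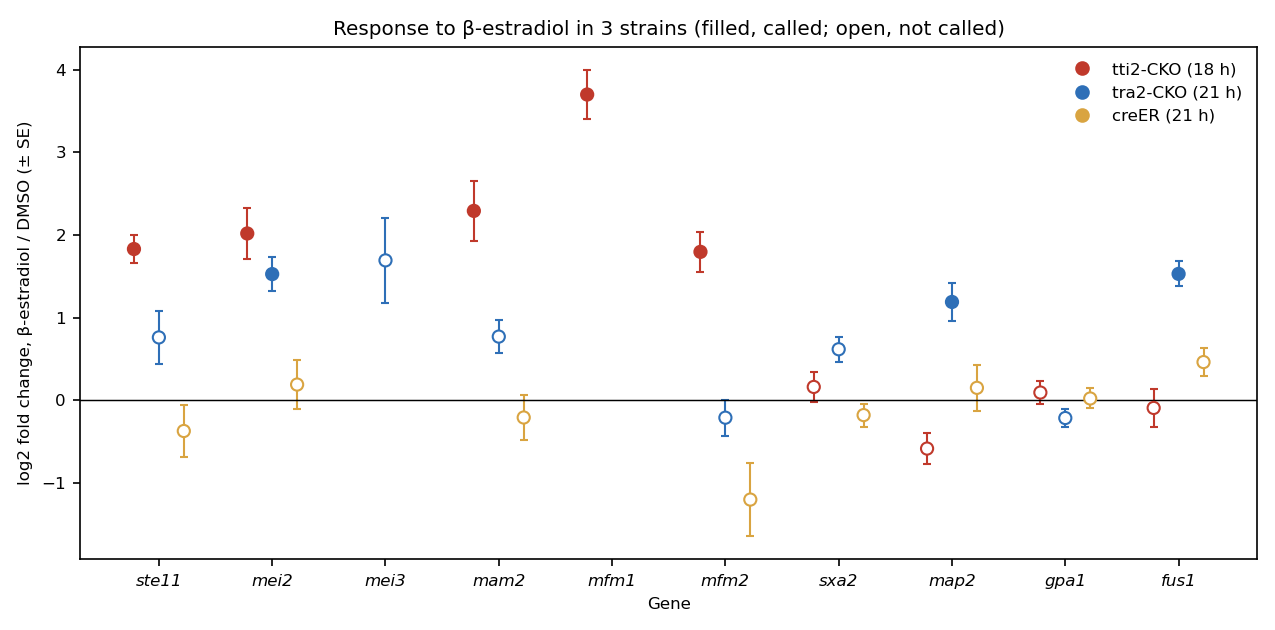
Log2 fold change of β-estradiol-treated over DMSO-treated cultures (vertical axis, ± SE, edgeR) for each gene in tti2-CKO, tra2-CKO and creER. Filled points were called, and mfm1 and mei3 have points only where they passed the filter on low counts. In tti2-CKO the called points are ste11, mei2, mam2, mfm1 and mfm2, and in tra2-CKO they are mei2, map2 and fus1.

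Interaction terms compared the strains' responses over 12 libraries each. Between tti2-CKO and creER, 2 of 9 genes were called, where 2.43% of 4945 genes were. The response of ste11 was higher in tti2-CKO by 2.22 ± 0.38 on the log2 scale and that of mfm2 by 3.01 ± 0.53 (edgeR, adjusted p = 0.00409 and 0.0049). The term of ste11 was past the threshold in 7 of 12 fits that left out a library, and its highest adjusted p was 0.0158. It was lost without creER DMSO replicate 2, creER β-estradiol replicate 2, tti2-CKO DMSO replicate 1 or 3, or tti2-CKO β-estradiol replicate 2. That of mfm2 was past it in 5 of 12 such fits, with a highest adjusted p of 0.0178 (edgeR). It was lost without creER β-estradiol replicate 2 or 3, any of the 3 tti2-CKO DMSO libraries, or tti2-CKO β-estradiol replicate 1 or 2. Without creER DMSO replicate 2, in which mfm2 stood apart, its term was still called but was 2.31. The terms were 2.51 ± 0.51 for mam2, 1.84 ± 0.48 for mei2 and 2.79 ± 0.70 for mfm1, and none of these passed (edgeR, adjusted p = 0.0105, 0.0324 and 0.0277). Without tti2-CKO β-estradiol replicate 3, 4 genes were called. Cultures were treated for 18 h in tti2-CKO and 21 h in creER, so time and strain cannot be told apart in these terms. Of the 29 regulators of ste11, 1 was called, gpa2, with a term of −1.70.

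Between tra2-CKO and creER, both treated for 21 h, edgeR called 0 of 9 genes, with 6 at an unadjusted p under 0.05, and DESeq2 called 1, fus1. The background of calls was 0.384% of 4946 genes, and none was computed for the unadjusted level. The largest difference relative to its error was that of fus1, 1.05 ± 0.24 on the log2 scale (edgeR, adjusted p = 0.0456). The terms of mei2, map2 and sxa2 were 1.32 ± 0.39, 1.02 and 0.78 ± 0.21 (edgeR, adjusted p = 0.105, 0.173 and 0.0814). Of the lists, edgeR called 0 of 28 meiotic genes, 0 of 18 signalling genes and 0 of 29 regulators. It also called 0 of 15 fusion genes and 0 of 5 P-cell genes.

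The conditional knockouts differed from each other in 3 of 10 genes, where 6.11% of 4956 genes were called. The response of mfm2 was higher in tti2-CKO than in tra2-CKO by 2.05 ± 0.35 on the log2 scale, while those of map2 (−1.72 ± 0.29) and fus1 (−1.57 ± 0.31) were lower (edgeR, adjusted p = 0.00158, 0.00167 and 0.00373). The terms of map2 and mfm2 were past the threshold without any 1 of the 12 libraries, but that of mfm2 was lost in a fit of all 36 libraries (edgeR, adjusted p = 0.0112). That of fus1 was lost without tra2-CKO β-estradiol replicate 1 (edgeR, adjusted p = 0.0116). For ste11 the term was 1.12 ± 0.39 (edgeR, adjusted p = 0.058), and 1.47 without tra2-CKO DMSO replicate 1, where it was called (edgeR, adjusted p = 0.000717). For mei2, the only gene called in both strains, it was 0.54 (edgeR, adjusted p = 0.42). Among listed genes, the adaptor gene ste4 (1.53) and byr1 (0.65) responded more positively in tti2-CKO and cbf12 (−2.14), gpa2 (−1.71) and the meiotic gene ssm4 (−1.69) less. Treatment time differed between the strains here as well.

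The floxed strains were also compared with creER under DMSO. Between tti2-CKO and creER, edgeR and DESeq2 both called 0 of 8 genes, with 1 at an unadjusted p under 0.05, and the background was 0% of 4888 genes. The largest term was that of mei2, with 15.2, 16.4 and 14.0 CPM in DMSO-treated tti2-CKO cultures and 14.6, 7.68 and 6.49 CPM in DMSO-treated creER cultures (log2 fold change 0.66 ± 0.29, edgeR, adjusted p = 0.339). These overlapped through creER replicate 1. Between tra2-CKO and creER, 0 of 8 genes were called by edgeR or DESeq2, 1 had an unadjusted p under 0.05 and the background was again 0%, of 4879 genes. Here same-numbered cultures deviated together, and in a fit with that number as block ste11 (log2 fold change −0.68) and mfm2 (−1.05) were lower in tra2-CKO (edgeR, adjusted p = 0.00586 and 0.00164). The labels do not say what a replicate number stands for.

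In tra1Δ, the regulator gene ste11 and the M-factor gene mfm2 were higher than in WT. The level of ste11 was 53.0, 60.2 and 46.5 CPM in tra1Δ cultures, against 23.0, 21.6 and 28.6 CPM in WT. All tra1Δ libraries were above all WT libraries, with means of 53.2 ± 6.87 and 24.4 ± 3.69 CPM (SD, n = 3 each) and a log2 fold change of 1.13 ± 0.14 (edgeR, adjusted p = 0.00095). This call was kept without any 1 of the 6 libraries. For mfm2 the values were 18.0, 25.3 and 26.4 CPM in tra1Δ and 12.8, 10.6 and 10.1 CPM in WT. The groups did not overlap and the log2 fold change was 1.05 ± 0.18 (edgeR, adjusted p = 0.00689). The call of mfm2 was lost without WT replicate 1 (adjusted p = 0.0182, edgeR), WT replicate 2 (0.0138), tra1Δ replicate 2 (0.0365) or tra1Δ replicate 3 (0.0399).

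The WT cultures themselves differed in mei2. It was at 50.7, 80.3 and 60.8 CPM in tra1Δ and at 27.2, 41.4 and 15.6 CPM in WT. No library of tra1Δ fell into the WT range, and the log2 fold change was 1.176 ± 0.277, which did not pass (edgeR, adjusted p = 0.0271). It was called without WT replicate 2 (1.55, edgeR, adjusted p = 0.00193) or WT replicate 3 (0.90, edgeR, adjusted p = 0.00873). For mam2 the values were 10.1, 27.4 and 29.1 CPM in tra1Δ and 5.29, 6.30 and 8.81 CPM in WT. Here tra1Δ replicate 1 lay near the WT range, and the log2 fold change of 1.73 ± 0.37 was not called (edgeR, adjusted p = 0.0198). It was called without that library (2.08, edgeR, adjusted p = 0.00206) or without WT replicate 3 (1.95, edgeR, adjusted p = 0.00569).

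Other genes differed less between tra1Δ and WT. The Gα gene gpa1 was at 48.2, 71.4 and 53.5 CPM in tra1Δ and 44.6, 45.8 and 39.9 CPM in WT. Every tra1Δ library was higher, with a log2 fold change of 0.41 ± 0.14 that did not pass (edgeR, adjusted p = 0.0918). For sxa2 the values were 32, 30.5 and 32 CPM in tra1Δ and 42.4, 39.5 and 35.7 CPM in WT. Here every tra1Δ library was lower, and the log2 fold change was −0.31 ± 0.10 (edgeR, adjusted p = 0.0793). The log2 fold changes of map2 and fus1 were 0.06 and −0.09, while mei3 and mfm1 did not pass the filter on low counts in this comparison. In all, 2 of the 8 genes tested were called, against 2.47% of 4899 genes, and their number was 1 to 4 when a library was left out. The median log2 fold change was 0.73 for the 8 genes and 0.00 for all genes. The summed M-cell genes were at 166–255 CPM in tra1Δ and 147–158 CPM in WT. The summed P-cell genes were at 635–666 CPM in tra1Δ and 653–758 CPM in WT. Without sxa1 they were at 84.5–101 CPM in tra1Δ and 74.0–85.1 CPM in WT. Among them map1 was at 12.6–23.0 CPM in tra1Δ and 7.16–8.46 CPM in WT, and 0 of 5 P-cell genes were called. The part of cell type in the result was not tested. Of the lists, ste4 (0.99) rose while the Ras regulator gene gap1 (−0.69), git3 (−1.13), cbf12 (−1.04) and the spore wall gene isp3 (−1.05) fell. These were 1 riser and 1 faller of 17 signalling genes, 2 fallers of 29 regulators and 1 faller of 26 meiotic genes.

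No gene was called higher or lower by edgeR in the altered forms of Tra1 and Spt20. Means of ste11, mei2 and mfm2 were lower there than in WT, without a call. The same WT libraries served for each, and their means of ste11 (24.4 CPM) and mei2 (28.1 CPM) also exceeded those of every DMSO-treated strain. In tra1-Sptra2, ste11 was at 17.9, 18.8 and 16.7 CPM, all below the 23.0, 21.6 and 28.6 CPM of WT. The log2 fold change was −0.44 ± 0.14 (edgeR, adjusted p = 0.0471). For mei2, the values were 14.8, 14.1 and 15.2 CPM in tra1-Sptra2, also below every WT library (−0.95 ± 0.30, edgeR, adjusted p = 0.0491). For mfm2 they were 7.38, 5.33 and 5.51 CPM, again below WT (−0.88 ± 0.19, edgeR, adjusted p = 0.0132). None of these passed, and edgeR called 0 of 8 genes, with 4 at an unadjusted p under 0.05, where 3.71% of 4908 genes were called. DESeq2 called 2 of them, mei2 and mfm2, and so did edgeR without WT replicate 3 (mei2 −1.22, adjusted p = 0.000733, and mfm2 −0.95, adjusted p = 0.00852). Among the 4 genes at an unadjusted p under 0.05 was also sxa2, lower in every tra1-Sptra2 library than in WT (−0.29, edgeR, adjusted p = 0.0525). The log2 fold changes of mam2, map2, fus1 and gpa1 were 0.26, 0.23, 0.05 and −0.09, and mei3 and mfm1 were not tested. Of 17 signalling genes 2 fell in tra1-Sptra2, spk1 (−1.01) and gap1 (−0.61), as did 1 of 5 P-cell genes, map1 (−1.01), whereas 1 of 26 meiotic genes rose, the RNA-binding gene spo5 (0.88).

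In tra1-Sctra1, edgeR and DESeq2 both called 0 of 8 genes, with 2 at an unadjusted p under 0.05 and a background of 0.286% of 4896 genes. The level of ste11 was 17.5, 17.0 and 17.0 CPM in tra1-Sctra1, below each WT library (log2 fold change −0.50 ± 0.15, edgeR, adjusted p = 0.182). For mfm2 it was 3.77, 4.46 and 7.54 CPM (−1.06 ± 0.26, edgeR, adjusted p = 0.127), below WT as well. Libraries of mei2 overlapped those of WT (−0.55), while those of map2 were all above WT (0.38, edgeR, adjusted p = 0.428). The log2 fold changes of mam2, fus1, gpa1 and sxa2 were −0.51, 0.07, −0.13 and −0.16, and mei3 and mfm1 were not tested. The median of the 8 genes was −0.33 in tra1-Sctra1 and −0.19 in tra1-Sptra2. In tra1-Sctra1 edgeR called no listed gene, and an unadjusted p under 0.05 was found for 4 of 17 signalling genes, 6 of 29 regulators and 5 of 25 meiotic genes. The share of all genes at that level was not computed.

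Of the constitutive mutants, spt20-HITΔ had the lowest mean levels of ste11, mei2 and mfm2. The values of ste11 were 15.1, 13.4 and 12.6 CPM in spt20-HITΔ, with a log2 fold change to WT of −0.83 ± 0.15 (edgeR, adjusted p = 0.0358). Those of mei2 were 9.05, 9.32 and 5.41 CPM (−1.84 ± 0.37, edgeR, adjusted p = 0.0481), and those of mfm2 were 5.10, 5.76 and 0.451 CPM (−1.60 ± 0.53, edgeR, adjusted p = 0.138), the last from 3 counts. For each of these genes all spt20-HITΔ libraries were below all WT libraries. By edgeR 0 of 8 genes were called and 3 had an unadjusted p under 0.05, where 0.368% of 4887 genes were called. DESeq2 called 2 of them, ste11 and mei2. The log2 fold changes of mam2, map2, fus1, gpa1 and sxa2 were −0.12, −0.15, 0.09, −0.11 and −0.15, and mei3 and mfm1 were not tested. No listed gene was called in spt20-HITΔ by edgeR, and an unadjusted p under 0.05 was found for 6 of 17 signalling genes, 6 of 29 regulators and 6 of 25 meiotic genes. These counts too have no background of all genes at that level.

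In spt20Δ, which lacks the whole subunit, ste11 was at 28.7, 25.6 and 36.4 CPM against 23.0, 21.6 and 28.6 CPM in WT. These ranges overlapped, with a log2 fold change of 0.30 ± 0.17 (edgeR, adjusted p = 0.176). For mei2 the values were 26.2, 35.3 and 27.8 CPM in spt20Δ, inside the WT range (0.07, edgeR, adjusted p = 0.867). Higher in all spt20Δ libraries than in any WT library, though not called, were mam2 with 8.92, 10.9 and 10.7 CPM (0.58 ± 0.23, edgeR, adjusted p = 0.0673), gpa1 with 54.7, 55.0 and 52.8 CPM (0.31 ± 0.08, edgeR, adjusted p = 0.0167), and fus1 with 26.9, 29.4 and 30.3 CPM (0.45 ± 0.14, edgeR, adjusted p = 0.0263). Of 8 genes edgeR and DESeq2 called 0, and 3 had an unadjusted p under 0.05, although 12.8% of 4920 genes were called. Their median log2 fold change was 0.19, that of all genes 0.02. Listed genes around them did change. Of 28 meiotic genes 8 rose and 2 fell, the highest being dmc1 (2.35), the meiotic double-strand break gene rec12 (1.74) and the chromosome axis gene hop1 (1.63). Of 29 regulators of ste11, 1 rose and 6 fell, among them pka1 (0.68), the protein kinase A gene, upwards and gpa2 (−1.16), cbf12 (−0.89) and git3 (−0.84) downwards. Of 17 signalling genes 4 rose and 1 fell, including spk1 (1.28), map3 (0.67) and map4 (0.67), an adhesin gene of P cells, upwards and gap1 (−0.66) downwards. The summed M-cell genes were at 183–198 CPM in spt20Δ and 147–158 CPM in WT, and the summed P-cell genes at 628–693 CPM in spt20Δ and 653–758 CPM in WT. Without sxa1, which carries most of that sum, the other 4 P-cell genes were at 119.4–133.9 CPM in spt20Δ and 74.0–85.1 CPM in WT, and 3 of the 5 rose, namely map1 (1.28), map3 and map4. The part of cell type was not tested.

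The mutants were then set against each other. Compared with spt20-HITΔ, spt20Δ had higher mei2 (26.2, 35.3 and 27.8 CPM against 9.05, 9.32 and 5.41 CPM) and higher ste11 (28.7, 25.6 and 36.4 CPM against 15.1, 13.4 and 12.6 CPM). Neither gene overlapped, and the log2 fold changes were 1.91 ± 0.22 and 1.13 ± 0.17 (edgeR, adjusted p = 0.00192 and 0.00438). These 2 of 8 genes were called where 4.26% of 4909 genes were. Of the 6 fits without a library, mei2 was called in 3 and ste11 in 1. The call of mei2 was lost without spt20Δ replicate 1 (adjusted p = 0.0110, edgeR), spt20Δ replicate 2 (0.0114) or spt20-HITΔ replicate 1 (0.0105), and that of ste11 was kept only without spt20-HITΔ replicate 2, with a highest adjusted p of 0.0217 in the other fits. Of the lists, spk1 (1.88), ste4 (0.72), byr1 (0.66) and rec12 (1.59) were higher in spt20Δ, while git3 (−0.77) and the RNA-binding repressor gene msa1 (−0.90) were lower. Of 5 P-cell genes, map1 was higher in spt20Δ (1.81).

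Compared with tra1Δ, spt20Δ had lower ste11, mei2 and mfm2. For ste11, 28.7, 25.6 and 36.4 CPM in spt20Δ stood against 53.0, 60.2 and 46.5 CPM in tra1Δ (log2 fold change −0.82 ± 0.15, edgeR, adjusted p = 0.00213). For mei2 it was 26.2, 35.3 and 27.8 CPM against 50.7, 80.3 and 60.8 CPM (−1.11 ± 0.17, edgeR, adjusted p = 0.000913), and for mfm2 7.51, 9.36 and 13.9 CPM against 18.0, 25.3 and 26.4 CPM (−1.20 ± 0.23, edgeR, adjusted p = 0.00349). The groups did not overlap for any of them, and these were the 3 called of 9 genes, where 8.28% of 4913 genes were. Without tra1Δ replicate 2 the call of ste11 was lost (edgeR, adjusted p = 0.0105), as was that of mfm2, which was also lost without tra1Δ replicate 3 or spt20Δ replicate 1 or 2 (highest adjusted p = 0.0189) and in a fit of all 36 libraries (edgeR, adjusted p = 0.0103). Without tra1Δ replicate 1, mam2 was called in addition (−1.50, edgeR, adjusted p = 0.00061). The formin gene fus1 was higher in spt20Δ by 0.55 ± 0.12 (edgeR, adjusted p = 0.00687), which is under a 1.5-fold change. Of 28 meiotic genes 7 were higher in spt20Δ, led by dmc1 (1.67), hop1 (1.57), rec12 (1.32) and atf31 (1.29). In tra1Δ, dmc1 and hop1 were at means of 1.59 and 1.39 CPM, near the limit of the filter on low counts. Among signalling genes 1 of 17 was lower, rgs1 (−1.28), and among 29 regulators the bZIP factor gene atf1 (0.79) and pka1 (0.61) were higher and gpa2 (−0.61) lower.

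Comparisons of tra1-Sptra2 and of spt20-HITΔ with tra1Δ were chosen after these levels had been seen, and both use the tra1Δ libraries of the preceding one. In tra1-Sptra2, ste11 (−1.57 ± 0.12), mei2 (−2.12 ± 0.16) and mfm2 (−1.93 ± 0.20) were lower than in tra1Δ (edgeR, adjusted p = 5.17e-06, 4.12e-06 and 0.000133). These were 3 of 8 genes, against 0.736% of 4892 genes called. In spt20-HITΔ, ste11 (−1.96 ± 0.14) and mei2 (−3.02 ± 0.23) were lower than in tra1Δ (edgeR, adjusted p = 0.000259 and 0.000336), 2 of 8 genes against 0.553% of 4880. All 5 calls were kept without any 1 library. In spt20-HITΔ mfm2 was not called (−2.66 ± 0.47, edgeR, adjusted p = 0.0297) but was without spt20-HITΔ replicate 2 (−3.11, edgeR, adjusted p = 0.00268) or replicate 3 (−2.10, edgeR, adjusted p = 0.00294). Without tra1Δ replicate 1, mam2 was called in both comparisons (−1.81 and −2.19, edgeR, adjusted p = 0.000137 and 0.00554). Of the signalling genes, rgs1 and ste4 were lower in both comparisons, by log2 fold changes of −1.19 and −1.05 in tra1-Sptra2 and −1.24 for each in spt20-HITΔ, and spk1 was lower in tra1-Sptra2 (−1.85). Of 29 regulators, cbf12 (0.91), msa1 (0.74) and git3 (0.59) were higher in tra1-Sptra2 and git3 (1.06) in spt20-HITΔ. Of 5 P-cell genes, map1 was lower in tra1-Sptra2 (−2.06).

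**Figure D3:**
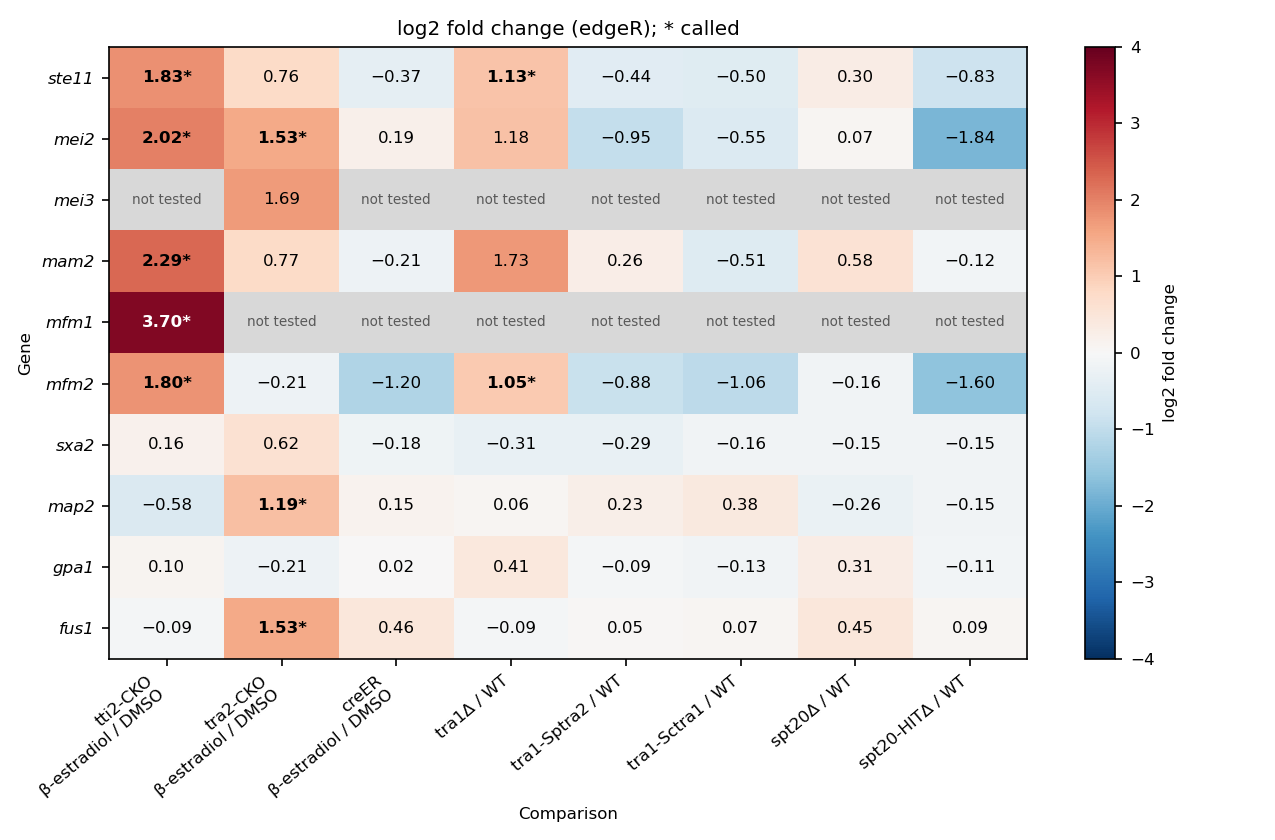
Log2 fold change (edgeR, colour scale and printed values) of each gene (rows). Columns are β-estradiol over DMSO in tti2-CKO, tra2-CKO and creER, and each constitutive mutant over WT. An asterisk marks a call. The columns of tti2-CKO and of tra1Δ against WT hold positive values for ste11, mei2, mam2 and mfm2, and those of tra1-Sptra2 and spt20-HITΔ against WT hold negative values for ste11, mei2 and mfm2.

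Across the 36 libraries the levels of ste11 and mei2 varied together. Pearson's r of their log2(CPM + 1) values was 0.78, and 0.94 over the 12 condition means, as a description of libraries that share conditions in sets of 3. Values of ste11 with mam2, mfm2 and mfm1 were 0.78, 0.75 and 0.67, and those among mei2, mam2, mfm1 and mfm2 were between 0.66 and 0.77. With fus1 and map2, ste11 had values of −0.00 and −0.12, with gpa1 0.55 and with sxa2 0.15, while map2 and fus1 had 0.35 with each other. Values of gpa1 were 0.60 with mei2, 0.64 with mfm2, 0.34 with mam2 and 0.37 with mfm1. Thus ste11, mei2, mam2, mfm1 and mfm2 varied together, with gpa1 near them in part. Values of fus1 and map2 with them lay between −0.20 and 0.24. These genes that varied together are those called in tti2-CKO, whose treated libraries are among the 36, so the grouping is not separate from those calls.

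**Figure D4:**
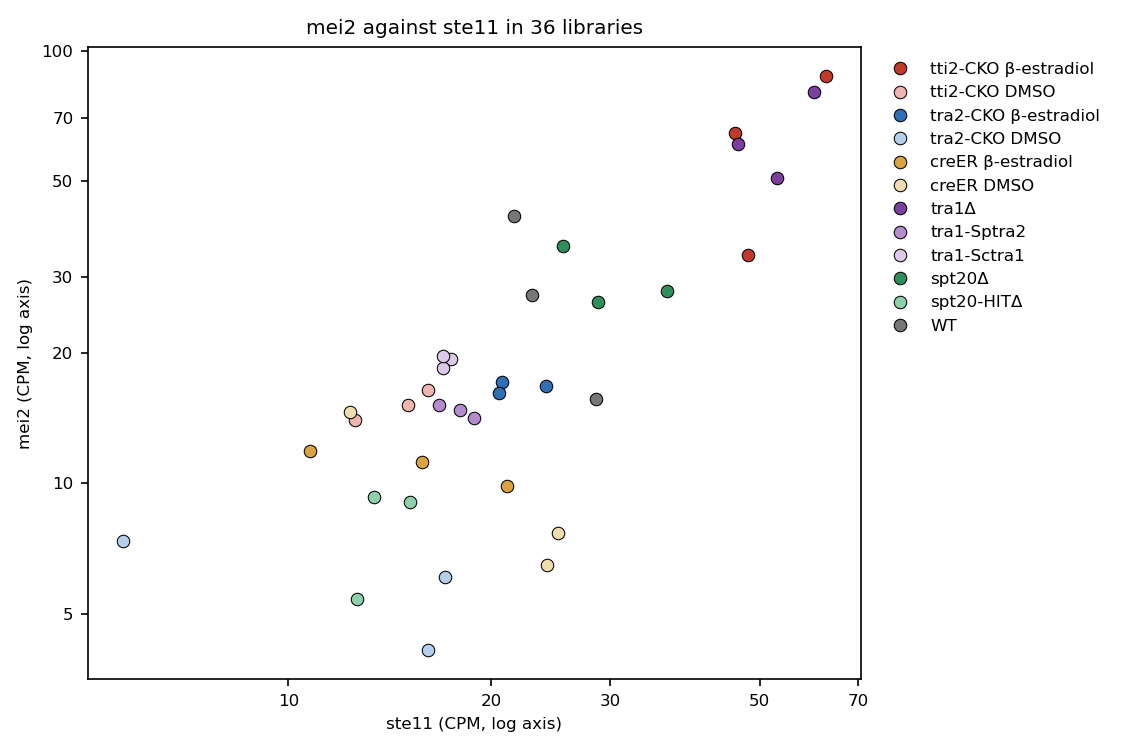
CPM of mei2 (vertical, log axis) against CPM of ste11 (horizontal, log axis) in the 36 libraries, with a colour for each condition. The libraries of tra1Δ and β-estradiol-treated tti2-CKO lie at the upper right, with ste11 from 46.0 to 62.6 CPM.

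Outside the 10 genes, those most like ste11 among 4643 genes averaging 10 CPM or more were the vacuolar carboxypeptidase gene cpy1 (r = 0.74 over 36 libraries), the sodium-proton antiporter gene sod2 (0.71), the inositol transporter gene itr2 (0.69) and aah3 (0.67). Those most like mei2 were gpd3 (0.80), a glyceraldehyde-3-phosphate dehydrogenase gene, SPAC11E3.14 (0.78), itr2 (0.77), gas2 (0.76) and rgs1 (0.76).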

How the data were processed

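Polyadenylated RNA was sequenced by the authors as stranded TruSeq libraries of TRIzol extracts. Per the labels and the study's methods, reads were aligned with HISAT2 2.1.0 and counted per gene with HTSeq 0.9.1 (versions from the submitters' processing notes). The counts were deposited as unnormalized whole numbers, and 0 sample columns were left unused. The genome build is not given in the sources used here, so no coordinates are printed. RefSeq ASM294v3 served for names (5111 of 5129 identifiers matched, 4261 with a symbol), lengths and promoter sequences.

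Groups followed the labels. For each of 14 comparisons between 2 conditions, the 6 libraries concerned were fitted with edgeR 4.0.16 (R 4.3.3), using TMM normalization, filterByExpr (minimum count 10) and the quasi-likelihood test. P-values were two-sided and adjusted by the Benjamini-Hochberg method over all genes tested. SE is the log2 fold change divided by the square root of F. The 3 interaction terms used 12 libraries. CPM values used TMM factors over all 36 libraries and were not corrected for length unless stated. The procedure was tested on simulated counts. The comparisons of mutants with WT share the WT libraries, and 4 comparisons use those of tra1Δ. Each p-value sets a difference between groups against the spread between cultures, estimated with sharing across genes.

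The 10 genes and the lists were chosen with earlier results of these data known. Every one of the 10 genes is named, though not in every comparison, and at most 4 called genes per list and comparison, by size of change. Of the list members, moc1, moc2, moc4, phh1, kar5, mei5, mcp5 and sme2 were not matched by symbol. Alternatives were RLE normalization, DESeq2 1.42.0, no filter, at least 10 counts in every library, a replicate block, 1 fit of all 36 libraries and leaving out each library. In 5 of 14 comparisons (spt20Δ, tra1-Sctra1, creER, tra2-CKO, and the DMSO cultures of tra2-CKO against those of creER) the deviations of same-numbered cultures from their group means correlated above 0.1 in every pair. This pairing comes from the data, and the sources do not say what a number marks.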

Additional observations from a re-analysis of the deposited data

Results flagged for a closer look

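Interaction terms set apart the β-estradiol responses of ste11, mfm2, map2 and fus1 between strains (edgeR). Against creER, the response of tti2-CKO was higher by 2.22 for ste11 and by 3.01 for mfm2 on the log2 scale, the last being 2.31 without creER DMSO replicate 2. Against tra2-CKO, that of tti2-CKO was higher by 2.05 for mfm2 and differed by −1.72 for map2 and −1.57 for fus1. Treatment lasted 18 h in tti2-CKO and 21 h in the other strains, so strain and time cannot be told apart in these terms.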

How the results depend on the processing

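No fold change given for a call turned its direction under any alternative. Numbers of the 10 genes called moved as follows. DESeq2 called 5 genes in tra2-CKO, 2 in tra1-Sptra2, 2 in spt20-HITΔ, and 5, 1 and 5 in the interactions of tti2-CKO with creER, tra2-CKO with creER and tti2-CKO with tra2-CKO. A single fit of all 36 libraries called 5 in tra2-CKO, 1 in spt20-HITΔ against WT (mei2), 4 in spt20-HITΔ against tra1Δ and 4 in the interaction of tti2-CKO with creER. With the replicate block, 2 were called in spt20-HITΔ against WT, ste11 (−0.83, edgeR, adjusted p = 0.00912) and mei2 (−1.79, edgeR, adjusted p = 0.000183). Deviations of same-numbered cultures there correlated for replicates 2 and 3 (r = 0.48 and 0.60) but not for replicate 1 (r = −0.02). The block also called 2 between tra2-CKO and creER under DMSO. Leaving out 1 library gave 1 to 4 calls in tra1Δ, 0 to 2 in tra1-Sptra2, 0 to 4 in the interaction of tti2-CKO with creER, 0 to 2 in spt20Δ against spt20-HITΔ and 1 to 4 in spt20Δ against tra1Δ. The cause of these shifts was not tested. In tra1Δ the block and the fit of all libraries called mei2 and mam2 but not mfm2 (edgeR, adjusted p = 0.0129 and 0.0432), and the filter of at least 10 counts in every library removed mfm1 from tti2-CKO. In creER, tra1-Sctra1, spt20Δ and tti2-CKO against creER under DMSO no gene was called in any setting. The 5 calls in tti2-CKO were kept in every setting that tested them. The levels of mei3 (at most 18 counts) and, outside treated tti2-CKO cultures, of mfm1 are too low for these depths to show moderate differences. Totals of reads limit precision by counting error only, and the spread between 3 cultures is added to it.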
